A study of Arabidopsis thaliana with 8 samples.

Results

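The comparison described here is how *pwr-2* seedlings differed from Col-0 seedlings of *Arabidopsis thaliana* averaged over both temperatures of the series, and the genes that differed the same way wherever it was measured. All 8 of the 8 RNA-seq libraries entered it: 4 *pwr-2* libraries and 4 Col-0 libraries, joined into 4 pairs, each made of the *pwr-2* and the Col-0 library of 1 temperature and 1 replicate number. *pwr-2* carries a T-DNA insertion in POWERDRESS (*PWR*, At3g52250) in the Col-0 background, and it is 1 allele in 1 line. Col-0 is the wild-type accession. In each genotype, seedlings were either moved to 27°C for 2 h or stayed at 23°C, with 2 biological replicates of each, and every library was made from a pool of whole seedlings. All seedlings were 6 days old and had been grown in short days of 8 h light and 16 h dark. Read pairs were counted per gene, and totals ranged from 7379650 to 15733741 counts per library.

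*PWR* encodes a nuclear protein with SANT domains, a fold found in many subunits of histone-modifying complexes, and it acts together with the histone deacetylase HDA9. Deacetylases take acetyl groups off histone tails, a change usually linked to lower transcription of the gene underneath. In seedlings, *PWR* is known for its role in the growth response to warm temperature, and in adult plants for roles in flowering time, floral stem cells and leaf senescence. Because the temperature shift and the genotype were crossed, the 4 pairs ask which genes carry a *pwr-2* effect that is there in both temperatures and in both replicates.

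The genotype labels were checked first on *PWR* itself (TAIR10.1, chromosome 3, 19376138-19383369, + strand). It had 143, 174, 144 and 223 counts in the *pwr-2* libraries, against 425, 1218, 594 and 1290 counts in the Col-0 libraries. In CPM, counts per 1000000 counts of a TMM-scaled library, these were 15.5, 11.3, 11.9 and 20.1 CPM in the *pwr-2* libraries, against 57.4, 75.3, 43.1 and 81.6 CPM in the Col-0 libraries, in the order 23°C replicate 1, 23°C replicate 2, 27°C replicate 1 and 27°C replicate 2, which is kept for all libraries and pairs named here. The groups did not overlap: *PWR* transcript averaged 14.7 ± 4.06 CPM in *pwr-2* and 64.3 ± 17.5 CPM in Col-0 (SD, n = 4 each), and its log2 fold change was -2.12 (standard error 0.197). Its edgeR adjusted p was 0.249 and its DESeq2 adjusted p 4.21e-13. All 3 neighbours listed next were also lower in *pwr-2* in every pair, with groups that did not overlap. AT3G52240, which lies next to *PWR* on the other strand, had a log2 fold change of -0.42, AT3G52260, which overlaps the end of *PWR* by 104 bases on the opposite strand, had -0.60, and AT3G52220 had -0.31. None of them passed the threshold by edgeR or DESeq2. Strand use in the counting is not given in the sources used here, so counts in overlapping genes on opposite strands cannot be told apart. Of the 5 annotated genes on either side, AT3G52270 and AT3G52285 had too few counts to be tested.

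One library stood apart. Col-0 at 23°C replicate 1, which also had the lowest total, had a mean correlation of log2 CPM of 0.856 with the other 3 Col-0 libraries, whereas the other 7 libraries had means of 0.906 to 0.940 with their own genotype. The difference of its pair was unlike those of the other pairs. Across the 19131 genes tested, the pair differences at 23°C replicate 1 had Pearson's r of -0.0938, -0.209 and -0.283 with those of the pairs at 23°C replicate 2, 27°C replicate 1 and 27°C replicate 2. Among the other 3 pairs r was 0.276 to 0.720. These are correlations across genes, which are not independent replicates, and pairs share no library. In 5251 genes (27.4%) the pair at 23°C replicate 1 was the lone pair that went against the other 3. The lone pair was the 27°C pair of replicate 1 in 2665 genes (13.9%), the 27°C pair of replicate 2 in 1095 (5.72%) and the 23°C pair of replicate 2 in 888 (4.64%). Organelle transcripts also differed between libraries, at 6.49%, 0.0374%, 3.29% and 2.12% of counts in the *pwr-2* libraries and 6.77%, 0.296%, 1.28% and 0.397% in the Col-0 libraries. Call counts, the leading genes of each group and the lists that move with it are therefore also given without the Col-0 library at 23°C replicate 1, from edgeR with temperature and replicate as additive terms. These are bulk samples of whole seedlings, so fewer cells of a type and less RNA per cell cannot be told apart.

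Over all 4 pairs, with the pair as a block, edgeR's quasi-likelihood test called 0 of 19131 genes (0.0%) at a Benjamini-Hochberg adjusted p under 0.05, and the lowest adjusted p was 0.187. Before adjustment, 2905 genes (15.2%) had p under 0.05, of which 1354 (7.08%) were higher and 1551 (8.11%) lower in *pwr-2*. limma voom with the same block also called 0. DESeq2 with the same block called 698 of 19303 genes (3.62%), 370 higher (1.92%) and 328 lower (1.7%). In a fit with temperature and replicate as 2 additive terms in place of the 4 pairs, edgeR called 3 genes, the pseudogene AT5G35935, the ferritin *FER1* and the protease inhibitor *UPI*. Leaving the Col-0 library at 23°C replicate 1 out of that fit gave 2153 calls, 1026 higher and 1127 lower, and leaving out its pair from the pair fit gave 179. Of the 698 DESeq2 calls, 571 were also among the 2153. With the pair as a block, these p-values measure the spread of the genotype difference over the 4 pairs. That spread mixes differences between replicates with differences between temperatures. Each genotype had 2 biological replicates at each temperature, which are separate pools of seedlings, so the 4 pairs are not 4 replicates of 1 condition.

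**Figure D1:**
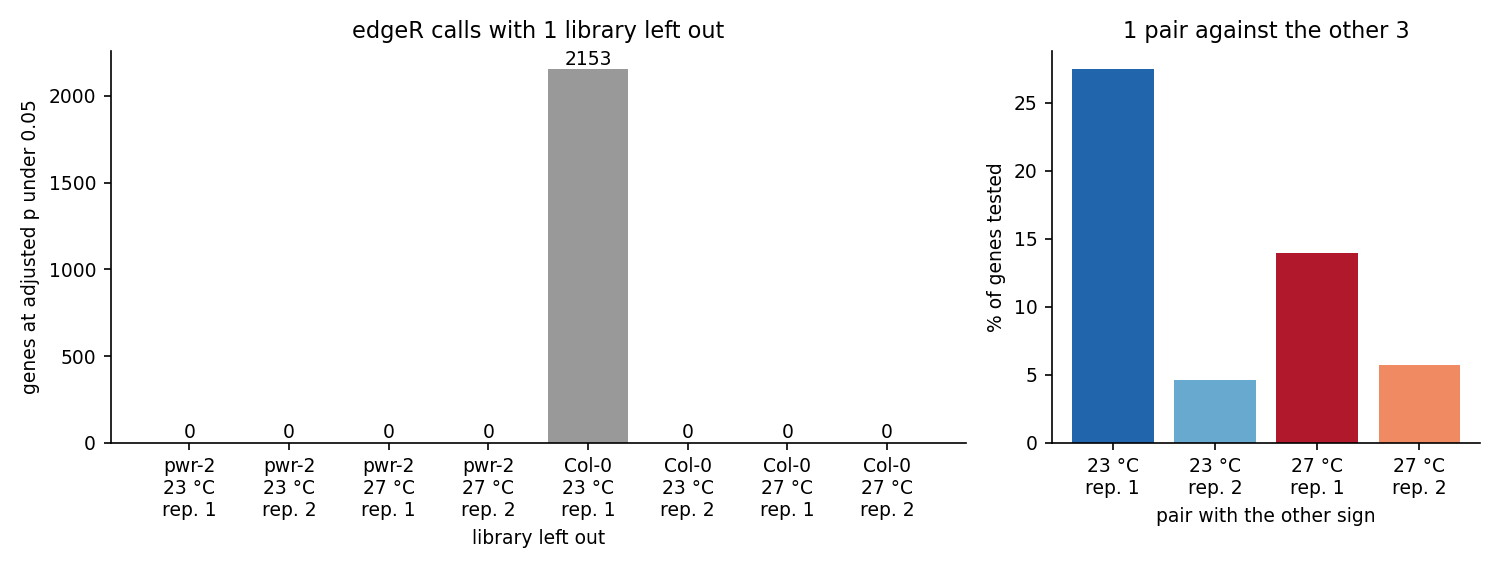
Genes called by edgeR (adjusted p under 0.05) with each of the 8 libraries left out in turn, and the percentage of 19131 genes in which 1 pair went against the other 3. Leaving out Col-0 at 23°C replicate 1 gave 2153 calls, and its pair was the lone one in 27.4% of genes.

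The direction was the same in all 4 pairs for 4718 of 19131 genes (24.7%), 2264 higher (11.8%) and 2454 lower (12.8%) in *pwr-2*. In 1259 of these (6.58%) the 4 *pwr-2* libraries did not overlap the 4 Col-0 libraries, 598 on the higher side (3.13%) and 661 on the lower side (3.46%). An exact sign-flip permutation over 4 pairs cannot give a two-sided p below 0.125, so the counts carry no test. Few genes differed strongly everywhere. In 34 genes every pair was over 2-fold higher in *pwr-2*, and in 43 every pair was over 2-fold lower. Over 4-fold in every pair remained 3 higher genes, AT5G35935, AT2G45135 and AT2G38823, and 4 lower genes, *PAP85*, *SESA2*, *SESA1* and *UPI*. All but *UPI* had few counts in most libraries of the genotype where they were lower, down to 0 in AT2G45135 and *SESA1*. Such genes can pass the filter on low counts through the other genotype. The prior count of 2 also enters their pair differences. The median absolute log2 fold change over all genes was 0.27.

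Since no gene passed the threshold of the main test, the 12 higher and the 12 lower genes with the lowest unadjusted p were followed among those with 1 direction in 4 pairs and groups that did not overlap. Their edgeR adjusted p was between 0.187 and 0.249. All 24 passed in DESeq2, and 23 of them passed in edgeR without the Col-0 library at 23°C replicate 1, where *PAP85* had an adjusted p of 0.0919. Unadjusted p, direction and separation in these same libraries were used to choose these 24 genes and are given as a description. DESeq2 and the fit with 1 library left out used the same counts, so passing there is not separate support.

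The strongest of the higher genes was AT5G35935 (TAIR10.1, chromosome 5, 14083388-14089891, - strand), annotated as a pseudogene. It had 151, 173, 148 and 127 counts in the *pwr-2* libraries, against 8, 4, 11 and 8 counts in the Col-0 libraries. The transcript was nearly absent from Col-0 and present at a similar level in every *pwr-2* library, with a log2 fold change of 4.39 (standard error 0.326, 20.9-fold, edgeR adjusted p = 0.187, DESeq2 adjusted p = 7.39e-19). A second pseudogene, AT3G21030, was 6.76-fold higher. The non-coding RNA AT1G67105 was 8.22-fold higher, with pair differences of 1.91, 2.99, 4.12 and 2.88 in log2 CPM. AT2G45135, which encodes a RING/U-box protein, had 27, 25, 43 and 19 counts in the *pwr-2* libraries, against 2, 0, 2 and 3 counts in the Col-0 libraries. AT2G38823, an uncharacterized gene added after its values were seen, had 15, 49, 47 and 49 counts in the *pwr-2* libraries, against 2, 7, 10 and 2 counts in the Col-0 libraries. Neither gene had more than 10 counts in any Col-0 library, and both were detected in all 4 *pwr-2* libraries.

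*ESM1* encodes a protein that steers the breakdown of glucosinolates, the sulphur-rich defence compounds of the cabbage family, towards isothiocyanates and away from nitriles. Its transcript stood at 634, 406, 515 and 291 CPM in the *pwr-2* libraries, against 149, 34.7, 156 and 26.2 CPM in the Col-0 libraries. Col-0 levels formed a higher pair of values in replicate 1 and a lower pair in replicate 2, and even so no Col-0 library reached the lowest *pwr-2* library. The log2 fold change was 2.71 (standard error 0.407, edgeR adjusted p = 0.249, DESeq2 adjusted p = 3.93e-09). Stretches covering 19.6% of the *ESM1* gene have a near-identical copy elsewhere in the genome, at 98% identity or more over at least 90 bases, so part of its count could be shared with another gene.

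The other higher genes encode enzymes, a transporter and a transcription factor. AT3G56080, a methyltransferase gene, had pair differences of 1.22, 1.66, 1.13 and 1.79 in log2 CPM, and AT2G22590, a glycosyltransferase gene, had 3.25, 1.95, 2.41 and 1.68. *XDH2*, which encodes a xanthine dehydrogenase, an enzyme of purine breakdown, was 2.40-fold higher at 38.2, 67.2, 25.9 and 38.0 CPM in the *pwr-2* libraries, against 20.6, 25.4, 13.1 and 11.1 CPM in the Col-0 libraries. AT4G36610, an alpha/beta-hydrolase gene, was 3.21-fold higher, AT1G73700, a MATE efflux carrier gene, 2.76-fold, and AT3G25790, a myb-like transcription factor gene, 2.94-fold.

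**Figure D2:**
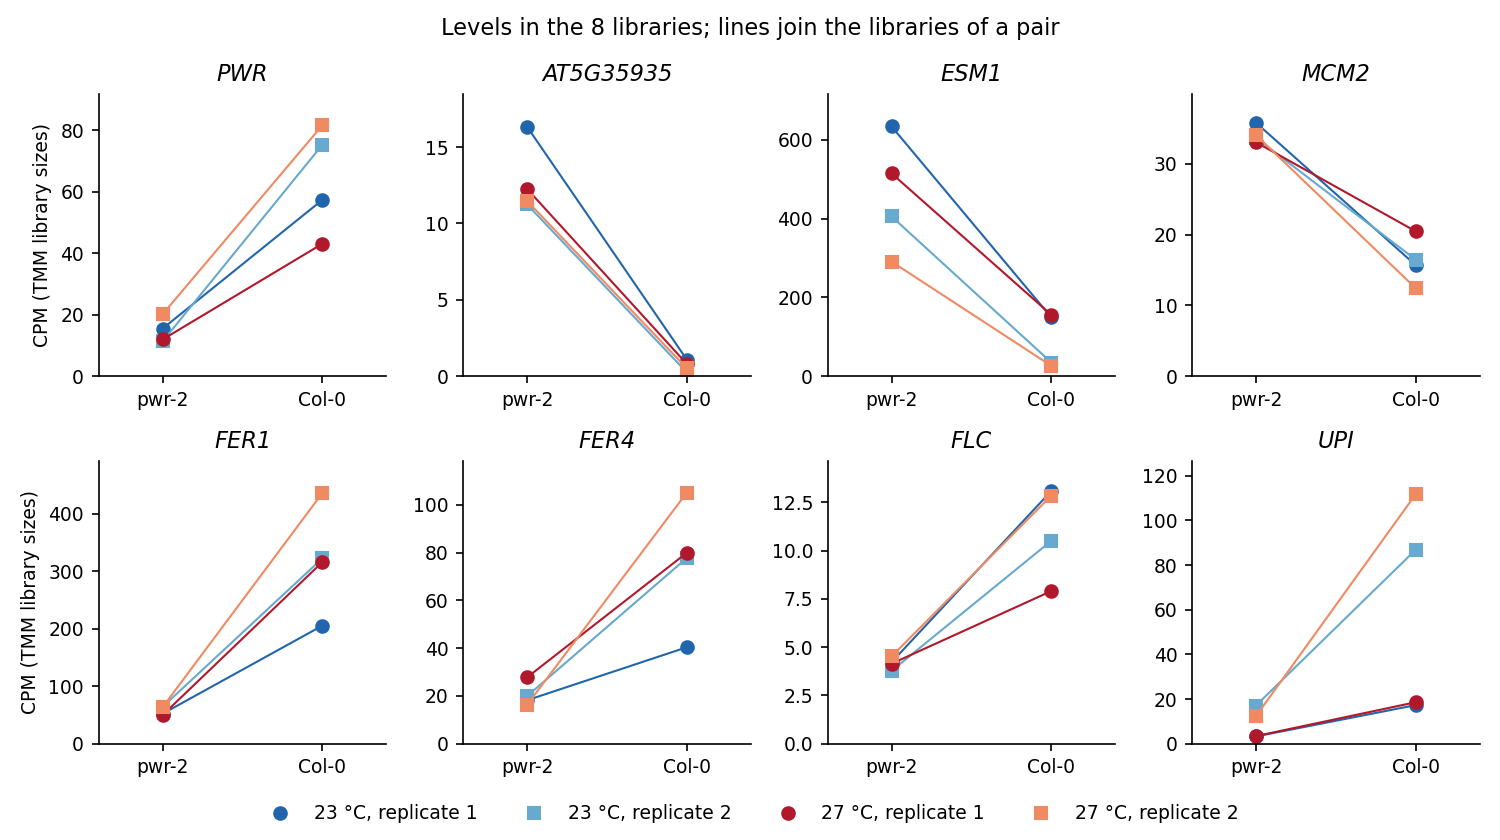
CPM of *PWR*, AT5G35935, *ESM1*, *MCM2*, *FER1*, *FER4*, *FLC* and *UPI* in each library, *pwr-2* left and Col-0 right, with lines joining the libraries of a pair. In every panel the 4 *pwr-2* libraries lie apart from the 4 Col-0 libraries.

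**Figure D3:**
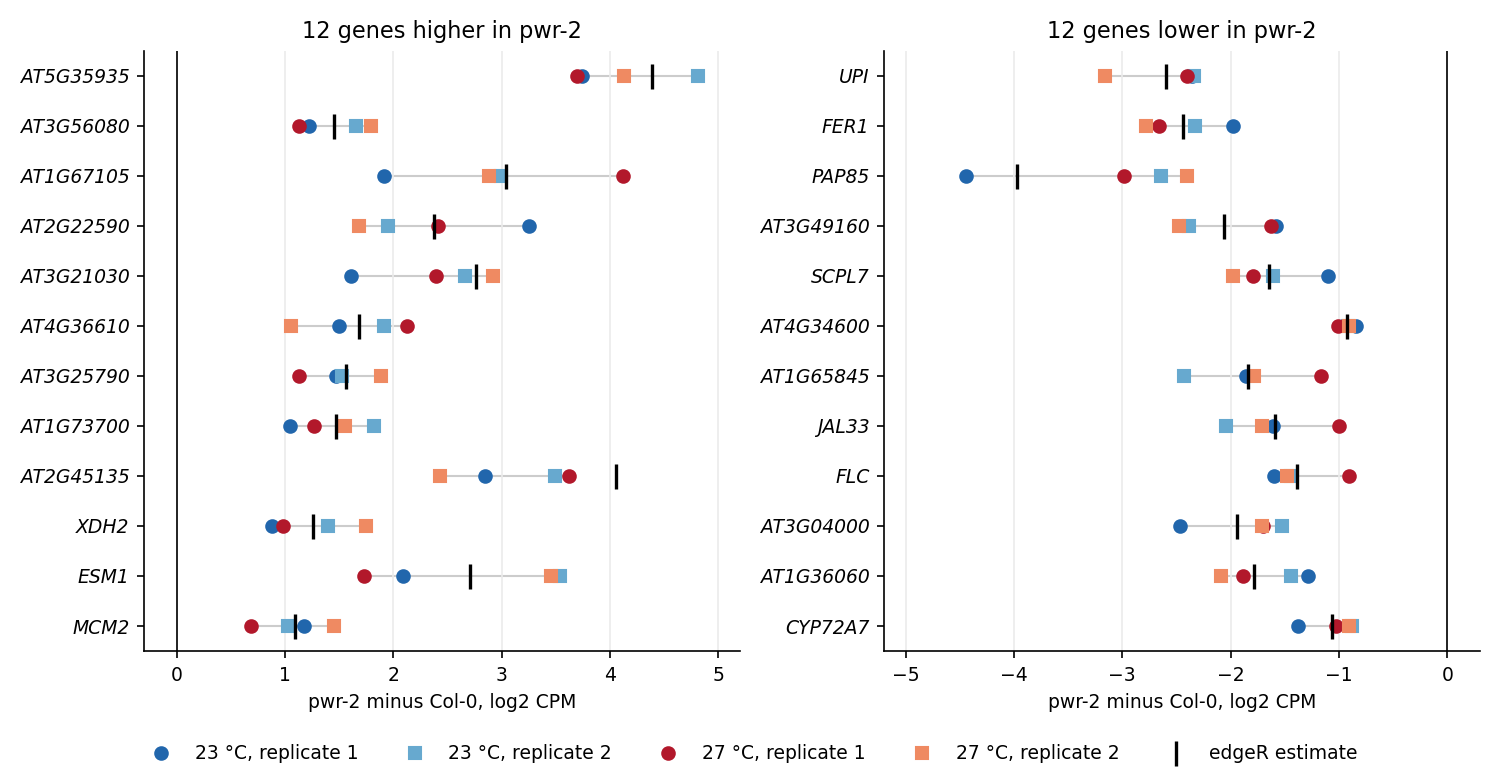
Differences in log2 CPM between *pwr-2* and Col-0 in each of the 4 pairs for the 12 higher and the 12 lower genes, with a tick at the edgeR log2 fold change. Estimates run between 1.09 and 4.39 for the higher genes and between -3.97 and -0.93 for the lower genes.

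*MCM2* was the last of the 12 higher genes. It encodes a subunit of the MCM complex, the ring-shaped helicase that opens DNA at replication forks and is built from MCM2 to MCM7. *MCM2* transcript stood at 35.8, 33.7, 33.0 and 34.1 CPM in the *pwr-2* libraries, against 15.66, 16.4, 20.4 and 12.4 CPM in the Col-0 libraries. The 4 *pwr-2* values lay within a narrow band above all Col-0 values, with a log2 fold change of 1.09 (standard error 0.165, edgeR adjusted p = 0.249, DESeq2 adjusted p = 5.27e-04). The genes for the other 5 subunits were added after their values were seen. All 6 were higher in all 4 pairs, with log2 fold changes of 0.95 for *MCM3*, 0.88 for *MCM4*, 0.79 for *MCM5*, 0.77 for *MCM6* and 0.70 for *PRL*, the gene of MCM7, which *STP7* overlaps by 437 bases on the opposite strand. *MCM2*, *MCM3* and *MCM4* passed in DESeq2, and the smallest difference of each of the 6 genes was in the 27°C pair of replicate 1, as low as 0.05 for *MCM5*. Without Col-0 at 23°C replicate 1, *MCM2* and *MCM4* passed in edgeR (adjusted p = 0.0231 and 0.0234), and *MCM3*, *MCM5*, *MCM6* and *PRL* did not, at 0.64 to 0.79 on the log2 scale.

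*CESA6* and *CESA5*, genes of cellulose synthases of the primary cell wall, were higher in *pwr-2*. Cellulose of growing cells is made by complexes of CESA1, CESA3 and CESA6 or its relatives CESA2 and CESA5. *CESA6* had 477, 454, 333 and 367 CPM in the *pwr-2* libraries, against 253, 224, 186 and 201 CPM in the Col-0 libraries. Its groups did not overlap and its 4 pair differences, 0.91, 1.01, 0.84 and 0.87, were close to each other (log2 fold change 0.91, standard error 0.152, DESeq2 adjusted p = 2.95e-07). *CESA5* showed the same separation, with a log2 fold change of 0.82 and a DESeq2 adjusted p of 9.71e-04. *CESA1* (0.42), *CEV1*, the gene of CESA3 (0.38), and *CESA2* (0.29) were higher in every pair without passing in either test. *FLA1*, which encodes a fasciclin-like arabinogalactan protein of the cell surface, was 2.66-fold higher, with pair differences of 1.15, 1.54, 1.2 and 1.75 and a DESeq2 adjusted p of 4.35e-09. In edgeR without Col-0 at 23°C replicate 1, *CESA6* (0.94), *CESA5* (0.86) and *FLA1* (1.52) passed and the other 3 did not. These wall genes were chosen after their values were seen.

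Neighbouring genes on chromosome 5 make the triterpene thalianol and its derivatives in roots, and 3 of 4 genes of this cluster were higher in *pwr-2* by DESeq2. *THAS1*, the thalianol synthase, had 117, 91.0, 95.6 and 39.5 CPM in the *pwr-2* libraries, against 72.8, 15.5, 29.5 and 9.18 CPM in the Col-0 libraries. The lowest *pwr-2* library lay below the highest Col-0 library, although each pair differed the same way, and the log2 fold change was 1.76 (standard error 0.330, DESeq2 adjusted p = 1.72e-04). The P450 genes *CYP708A2* and *CYP705A5* had log2 fold changes of 1.42 and 1.68, and only *CYP705A5* of the 4 cluster genes had groups that did not overlap. The acyltransferase gene AT5G47980 had 0.60 (DESeq2 adjusted p = 0.401). Leaving out Col-0 at 23°C replicate 1, *THAS1* had 2.01, *CYP708A2* 1.67 and *CYP705A5* 1.59, all past the edgeR threshold, and AT5G47980 had 0.58, which was not. Root marker genes as a list had a median log2 fold change of -0.49. The cluster was chosen after its values were seen.

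**Figure D4:**
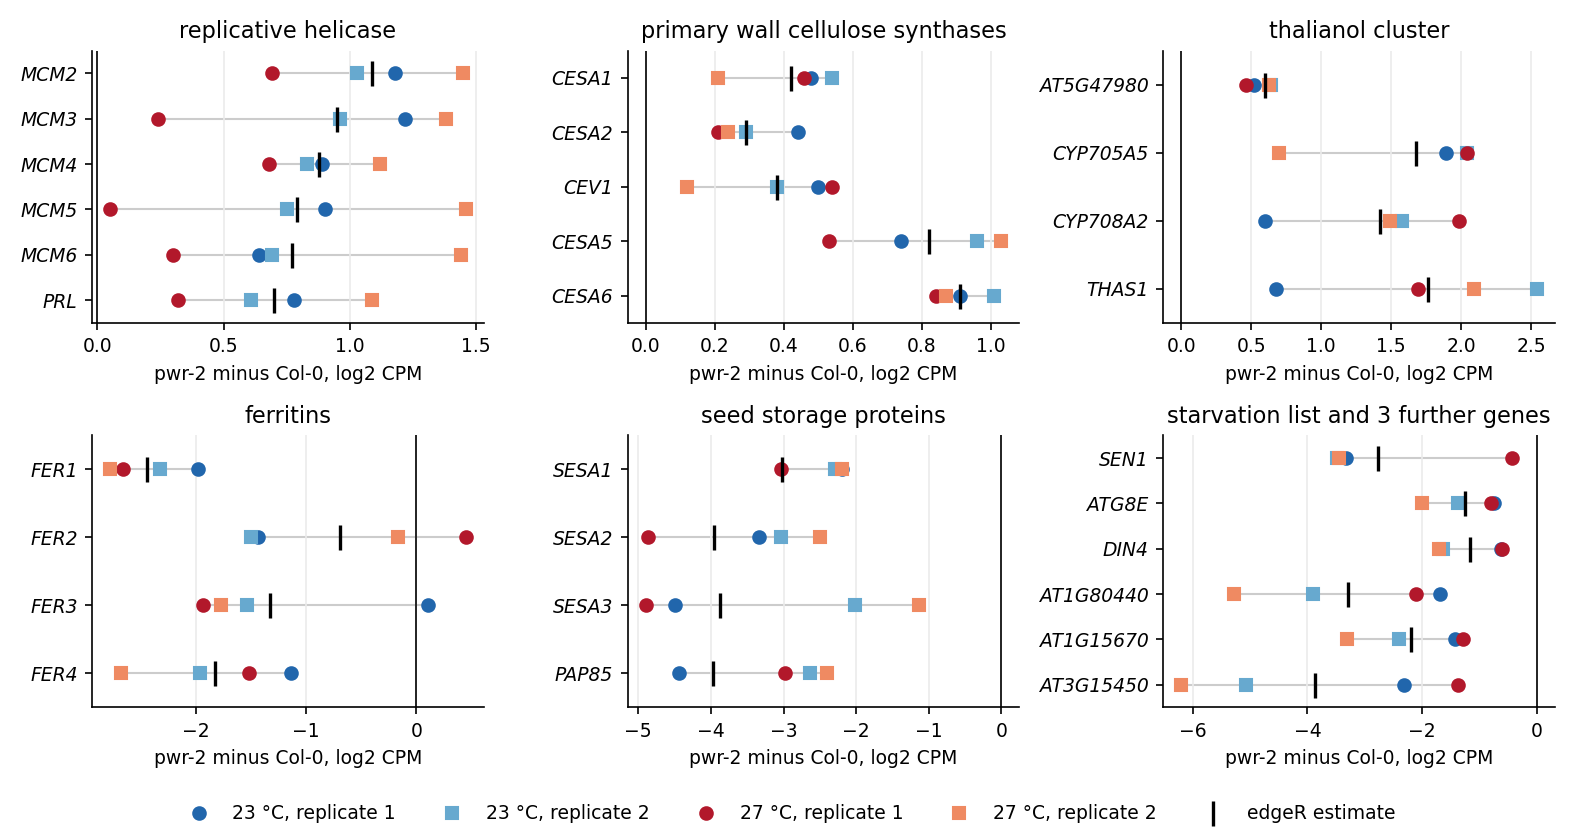
Pair differences in log2 CPM between *pwr-2* and Col-0 for gene families: MCM subunits, primary wall cellulose synthases, the thalianol cluster, ferritins, seed storage proteins, and sugar-starvation genes. All 6 MCM genes and all 5 cellulose synthase genes were higher in every pair, whereas *FER3* and *FER2* had 1 or more pairs above 0.

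Ferritin genes were among the lower genes. Ferritins are protein shells in plastids that store iron, and *FER1*, the main leaf form, is switched on when iron is plentiful. *FER1* had 52.0, 64.0, 49.7 and 63.3 CPM in the *pwr-2* libraries, against 205, 322, 316 and 436 CPM in the Col-0 libraries. The highest *pwr-2* value, 64.0 CPM, was far below the lowest Col-0 value, 205 CPM. The log2 fold change of -2.44 (standard error 0.204, 5.43-fold lower) had an edgeR adjusted p of 0.223 and, at 2.40e-22, the lowest DESeq2 adjusted p of the 24 genes. AT5G01595 overlaps *FER1* by 1334 bases on the opposite strand. *FER4* had 18.17, 19.9, 27.7 and 16.3 CPM in the *pwr-2* libraries, against 40.4, 77.8, 79.9 and 105 CPM in the Col-0 libraries. Again the groups did not overlap, with a log2 fold change of -1.83 (standard error 0.279, DESeq2 adjusted p = 1.28e-05). *FER3* was lower in 3 of 4 pairs, at 0.11, -1.54, -1.94 and -1.77 in log2 CPM, and *FER2*, the seed form, had a log2 fold change of -0.69 (DESeq2 adjusted p = 0.549). With Col-0 at 23°C replicate 1 left out, the values were -2.56 for *FER1*, -2.07 for *FER4* and -1.67 for *FER3*, and all 3 passed in edgeR.

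Of the 28 genes in the iron list, 21 passed the filter on low counts, with a median log2 fold change of 0.16 beside 0.00 over all genes. In DESeq2, 2 were higher and 4 lower, where over all genes 1.92% were called higher and 1.7% lower. *OPT3*, which encodes a transporter that loads iron into the phloem, was 2.16-fold higher in *pwr-2*, with pair differences of 1.03, 0.72, 1.36 and 1.34. *NAS4*, a gene of nicotianamine synthase, which makes a metal chelator, had a log2 fold change of 0.81. *NRAMP1*, a metal importer gene, had -1.33 and joined *FER1*, *FER3* and *FER4* on the lower side. *IRT1*, the main iron importer of the root, had no constant difference. It was higher in both pairs of replicate 1 and lower in both pairs of replicate 2, at 5.63, -2.14, 3.73 and -2.45 in log2 CPM.

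*UPI*, a gene for a serine protease inhibitor of the potato inhibitor I family, shared the lowest edgeR adjusted p with AT5G35935. It had 3.24, 17.1, 3.40 and 12.4 CPM in the *pwr-2* libraries, against 17.3, 86.9, 18.6 and 112 CPM in the Col-0 libraries. Levels of *UPI* were several-fold higher in replicate 2 than in replicate 1 in both genotypes, so the highest *pwr-2* value came close to the lowest Col-0 value, while the 4 pair differences were -2.36, -2.34, -2.40 and -3.16. The log2 fold change was -2.60 (standard error 0.195, edgeR adjusted p = 0.187, DESeq2 adjusted p = 1.59e-18). AT3G49160, a pyruvate kinase family gene, was 4.17-fold lower in *pwr-2*, *SCPL7*, a serine carboxypeptidase-like gene, 3.14-fold, and *JAL33*, a gene of a jacalin-related lectin, 3.02-fold. AT3G04000, a gene of a Rossmann-fold protein, was 3.85-fold lower and overlaps AT3G04010 by 479 bases on the opposite strand. The AP2-type DNA-binding protein gene AT1G36060 was 3.43-fold lower, the P450 gene *CYP72A7* 2.08-fold, and the uncharacterized genes AT1G65845 and AT4G34600 3.58-fold and 1.91-fold. AT4G34600 had the most even difference of the 24 genes, at -0.84, -0.92, -1.01 and -0.91 in log2 CPM.

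The albumin genes *SESA1*, *SESA2* and *SESA3* and the storage protein gene *PAP85* were lower in *pwr-2*, at few counts in most libraries. These proteins are laid down in the maturing seed and used up after germination, and their genes are switched off in the seedling. *PAP85*, a cupin family gene related to the vicilin storage proteins, had 8, 1, 1 and 4 counts in the *pwr-2* libraries, against 163, 20, 24 and 41 counts in the Col-0 libraries. The albumin gene *SESA2* had 42, 1, 3 and 3 counts in the *pwr-2* libraries, against 351, 27, 161 and 36 counts in the Col-0 libraries. *SESA1* had 24, 0, 3 and 2 counts in the *pwr-2* libraries, against 92, 10, 44 and 22 counts in the Col-0 libraries, and *SESA3* had 24, 1, 5 and 8 counts in the *pwr-2* libraries, against 462, 12, 233 and 28 counts in the Col-0 libraries. In both genotypes most of the counts came from replicate 1 libraries, and Col-0 at 23°C replicate 1 held the most for each of these genes. Log2 fold changes were -3.97 for *PAP85*, -3.96 for *SESA2*, -3.02 for *SESA1* and -3.88 for *SESA3*, and all 4 passed in DESeq2. Single libraries moved these sizes by over 1.5-fold in the fit with additive terms, with no change of sign. Without that Col-0 library the fit gave -2.60 for *PAP85*, -3.35 for *SESA2*, -2.38 for *SESA1* and -2.58 for *SESA3*, and none of the 4 passed in edgeR (adjusted p = 0.0675 to 0.192), and without *pwr-2* at 23°C replicate 1 it gave -4.99 for *SESA2* and -4.17 for *SESA1*. Without *pwr-2* at 27°C replicate 1 it gave -3.14 for *SESA2* and -2.92 for *SESA3*, and without *pwr-2* at 27°C replicate 2 it gave -4.72 for *PAP85* and -4.74 for *SESA3*. *SESA4* had 7, 0, 1 and 0 counts in the *pwr-2* libraries, against 201, 0, 95 and 1 counts in the Col-0 libraries, *SESA5* had 14, 1, 3 and 1 counts in the *pwr-2* libraries, against 147, 2, 22 and 6 counts in the Col-0 libraries, and the cruciferin gene *CRU2* had 8, 0, 0 and 1 counts in the *pwr-2* libraries, against 136, 5, 71 and 6 counts in the Col-0 libraries. Those 3 did not pass the filter on low counts. The major cruciferin genes did not have one direction. *CRA1* had 149, 1.17, 51.5 and 7.95 CPM in the *pwr-2* libraries, against 173, 210.5, 15.1 and 68.2 CPM in the Col-0 libraries, and *CRU3* had 181, 1.62, 43.7 and 1.72 CPM in the *pwr-2* libraries, against 173, 106, 26.5 and 33.1 CPM in the Col-0 libraries. Their ranges overlapped, and the pair differences were -0.22, -7.31, 1.76 and -3.08 for *CRA1* (DESeq2 adjusted p = 0.558) and 0.06, -5.89, 0.72 and -4.15 for *CRU3* (DESeq2 adjusted p = 0.358). Of 34 genes in the seed maturation list 21 passed it, with a median log2 fold change of -0.07 and pair medians of -0.75, -2.30, 1.76 and -0.49. DESeq2 called 3, the albumins *SESA1* to *SESA3*, all lower, where over all genes it called 1.7% lower. Of the 21 genes, 13 were below 0 and 8 above. In all 4 pairs, 4 were lower and 0 higher (19.05%, beside 24.7% over all genes, 11.8% higher and 12.8% lower).

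Promoters of albumin genes are a textbook case of the RY element, CATGCA, which seed regulators with B3 domains bind. The 250 bases before the annotated gene start are shown for 4 storage protein genes that passed the filter and were lower in all 4 pairs. They were picked for that direction, and the windows of *CRA1* and *CRU3*, which also passed the filter, are not given. Sequences follow the RefSeq annotation of TAIR10.1, 5′ to 3′ on the gene's strand. Capitals mark CATGCA or its reverse complement TGCATG, with overlapping matches run together.
SESA1, chr4:13607079-13607328, + strand: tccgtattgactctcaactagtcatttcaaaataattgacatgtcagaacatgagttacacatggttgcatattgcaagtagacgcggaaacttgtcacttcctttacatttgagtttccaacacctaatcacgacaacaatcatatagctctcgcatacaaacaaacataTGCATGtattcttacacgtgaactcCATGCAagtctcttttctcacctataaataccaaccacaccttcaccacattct
SESA2, chr4:13609091-13609340, + strand: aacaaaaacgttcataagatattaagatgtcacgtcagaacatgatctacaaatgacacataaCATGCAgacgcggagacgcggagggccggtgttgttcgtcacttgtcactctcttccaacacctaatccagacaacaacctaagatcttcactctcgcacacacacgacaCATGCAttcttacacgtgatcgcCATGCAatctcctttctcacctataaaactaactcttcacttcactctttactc
SESA3, chr4:13611546-13611795, + strand: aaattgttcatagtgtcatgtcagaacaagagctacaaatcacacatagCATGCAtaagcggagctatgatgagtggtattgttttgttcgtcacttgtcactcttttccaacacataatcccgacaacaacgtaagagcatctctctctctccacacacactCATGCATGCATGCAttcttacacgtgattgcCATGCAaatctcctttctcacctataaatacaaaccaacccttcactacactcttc
PAP85, chr3:8013942-8014191, - strand: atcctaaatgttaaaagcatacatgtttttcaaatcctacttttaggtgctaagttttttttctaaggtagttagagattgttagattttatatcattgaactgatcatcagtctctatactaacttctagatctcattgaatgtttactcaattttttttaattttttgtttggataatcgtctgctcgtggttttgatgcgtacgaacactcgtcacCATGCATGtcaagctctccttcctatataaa
On either strand, the element occurs 2 times in the window of *SESA1*, 3 times in *SESA2*, 7 times with overlaps in *SESA3* and 2 times in *PAP85*. The windows of *SESA4* and *SESA5* hold 6 and 4, and that of *CRU2* holds 0. Of the 26711 windows of this length before protein-coding genes of the nuclear chromosomes, 2272 (8.51%) hold it at least once. These are matches of letters, which describe the sequences and say nothing of what binds there.

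*FLC* encodes the MADS-box protein that holds back flowering. It was lower in *pwr-2* at 4.22, 3.77, 4.14 and 4.52 CPM in the *pwr-2* libraries, against 13.1, 10.51, 7.91 and 12.8 CPM in the Col-0 libraries. No *pwr-2* library reached the lowest Col-0 library, and the pair differences were -1.60, -1.44, -0.91 and -1.48 (log2 fold change -1.39, standard error 0.192, edgeR adjusted p = 0.249, DESeq2 adjusted p = 4.03e-04). *FT*, the mobile signal for flowering that FLC represses, had 0, 9, 1 and 0 counts in the *pwr-2* libraries, against 0, 0, 0 and 0 counts in the Col-0 libraries, too few to be tested. *SPL15*, an activator of flowering that AT3G57910 overlaps on the opposite strand, had a log2 fold change of -0.86, and *TOE3*, a gene of an AP2-type floral repressor, had 1.42 (DESeq2 adjusted p = 0.0928) with pair differences of -0.15, 1.90, 1.17 and 2.62. Without Col-0 at 23°C replicate 1 the additive fit gave 1.97 for *TOE3* (edgeR adjusted p = 0.0207), and -1.25 for *FLC* (edgeR adjusted p = 0.0237). Of 42 genes in the flowering list 24 passed the filter on low counts. Their median was -0.11, and DESeq2 called *FLC* alone. In all 4 pairs, 2 were higher and 6 lower (33.3%, beside 24.7% over all genes, 11.8% higher and 12.8% lower).

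In the list of senescence and sugar starvation genes, more members were called lower than higher in *pwr-2*. Of 45 genes, 44 were tested, with 25 below 0, a median log2 fold change of -0.29 and pair medians of -0.87, -0.82, 0.49 and -0.38. The 27°C pair of replicate 1 thus went the other way, and the median was -1.06 with the 23°C pairs alone, 0.03 with the 27°C pairs alone and -0.25 without Col-0 at 23°C replicate 1. At an unadjusted edgeR p under 0.05, 13 were lower and 0 higher, and 11 were lower in all 4 pairs against 0 higher, beside 8.11% and 12.8% lower over all genes. DESeq2 called 8 lower, *NYC1*, *SEN1*, *DIN4*, *ASN1*, *DIN10*, *ATG8E*, *TPS11* and *AKINBETA1*, and 1 higher, *SAG29*. Over all genes it called 1.7% lower and 1.92% higher. *SEN1*, a gene induced in dark-kept leaves, had 3.24, 2.08, 8.36 and 2.35 CPM in the *pwr-2* libraries, against 34.1, 24.97, 11.4 and 27.3 CPM in the Col-0 libraries. All 4 *pwr-2* values were below all Col-0 values (log2 fold change -2.77, standard error 0.634, DESeq2 adjusted p = 2.87e-04, and -2.50 without Col-0 at 23°C replicate 1, where it did not pass in edgeR at an adjusted p of 0.0535). *ASN1*, which encodes an asparagine synthetase, had 5.30, 11.1, 8.45 and 5.24 CPM in the *pwr-2* libraries, against 11.1, 233, 11.5 and 322 CPM in the Col-0 libraries. Here the high values were the replicate 2 libraries of Col-0, and the difference in replicate 1 was small, so that pair differences were -1.04, -4.37, -0.43 and -5.90. *DIN10*, a raffinose synthase-like gene, followed *ASN1* with -0.56, -4.20, -1.28 and -5.71, as did *TPS11*, a trehalose phosphate synthase family gene, with -0.50, -3.49, -0.57 and -3.70. With single libraries left out of the additive fit, estimates ran from -3.78 (without Col-0 at 23°C replicate 1) to -2.0 (without *pwr-2* at 27°C replicate 2) for *ASN1* and from -3.85 to -2.01 for *DIN10*, with the same 2 libraries at the ends.

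Smaller but more even differences were found for *ATG8E*, a gene of the autophagosome coat, at -0.75, -1.37, -0.80 and -2.0, for *NYC1*, a chlorophyll b reductase gene, at -0.30, -0.98, -0.78 and -1.07, and for *DIN4*, a gene of branched-chain amino acid breakdown, at -0.62, -1.63, -0.61 and -1.70. *AKINBETA1*, a subunit gene of the energy-sensing SnRK1 kinase, had a log2 fold change of -1.97 with groups that did not overlap. Among genes added after their values were seen, the kelch-repeat genes AT1G80440 and AT1G15670 had log2 fold changes of -3.29 and -2.20, AT3G15450, a gene of an aluminium-induced protein, -3.86, and AT4G36850, a PQ-loop membrane protein gene, -4.39. In all 4 of these the largest difference was in the 27°C pair of replicate 2, up to -6.31 for AT4G36850. Without *pwr-2* at 27°C replicate 2 the additive fit gave -2.70 for AT1G80440, -2.96 for AT3G15450 and -3.60 for AT4G36850, and for AT3G15450 it gave -4.61 without *pwr-2* at 27°C replicate 1, -4.44 without Col-0 at 23°C replicate 1 and -4.37 without Col-0 at 27°C replicate 1. Genes of age-related senescence in the same list had mixed signs, and of those given here none passed in edgeR or DESeq2. *SAG13* had pair differences of -6.00, 2.09, 1.81 and 5.92 and *WRKY53* had -1.83, -0.17, 1.2 and 1.76. *NAC6*, the gene of ORE1, had -1.34, -1.08, 0.39 and -1.05 and *NAP* had -2.74, -2.08, 0.53 and -0.11, with log2 fold changes of -0.79 and -1.10, and *SAG20*, *BCB* and *NYE1* had -0.94, -0.82 and -0.41.

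Apart from *PWR* itself, the genes named by the study that were looked up were *PIF4*, *YUC8*, *HSP70*, *FT*, *HDA9* and those of the SWR1 complex and H2A.Z. None that could be tested passed in edgeR or DESeq2. The paper reports a weaker warm induction of *PIF4*, *YUC8* and *HSP70* in *pwr-2*, measured in older seedlings. The difference given here is averaged over both temperatures and is another measure. *PIF4*, the bHLH factor at the centre of the growth response to warmth, had 138, 106, 117 and 85.4 CPM in the *pwr-2* libraries, against 79.8, 91.9, 128 and 96.9 CPM in the Col-0 libraries. The ranges overlapped, and the log2 fold change was 0.17 (standard error 0.210, edgeR adjusted p = 0.707). *YUC8*, an auxin biosynthesis gene downstream of it, had 0.06 (standard error 0.285), and *HSP70*, a heat shock chaperone gene, 0.81 (standard error 0.724) with pair differences of -1.60, 2.69, 0.77 and 1.16. Without *pwr-2* at 23°C replicate 2 the additive fit gave 0.25 for *HSP70*, against 0.85 with all libraries. *HDA9*, the deacetylase partner of PWR, had 12.9, 12.7, 11.8 and 15.3 CPM in the *pwr-2* libraries, against 17.41, 17.9, 13.9 and 12.1 CPM in the Col-0 libraries, which overlapped (log2 fold change -0.21, standard error 0.188). Transcripts for the SWR1 complex, which places the histone variant H2A.Z in nucleosomes, were compared as well. *PIE1*, its ATPase subunit gene, which *MYB10* overlaps on the opposite strand, had 0.20, *ARP6* -0.22, and *SEF*, the gene of SWC6, -0.67, and the H2A.Z genes *HTA9* and *HTA11* had -0.30 and 0.46.

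The wider lists around these genes had medians close to that of all genes. The median was -0.04 over the 19 tested histone deacetylase and partner genes, where *PWR* itself was the one DESeq2 call, and -0.16 over the 12 genes of H2A.Z and the SWR1 complex. One direction in all 4 pairs was found for 15.8% of the deacetylase list, beside 24.7% over all genes. In the H2A.Z list it was 50.0%, with 3 higher and 3 lower. *SWC2* had the lowest p of that list, at -0.69 (DESeq2 adjusted p = 0.165). Over the 43 tested genes of thermomorphogenesis and light signalling the median was -0.04, with 6 higher and 8 lower in all 4 pairs (32.6%, beside 24.7% over all genes). At an unadjusted edgeR p under 0.05, 4 were higher and 6 lower (23.3%, beside 15.2% over all genes). *HYH*, a bZIP gene of light signalling, was its 1 DESeq2 call, at 19.9, 7.28, 13.4 and 9.49 CPM in the *pwr-2* libraries, against 26.7, 37.5, 23.57 and 27.1 CPM in the Col-0 libraries. The groups of *HYH* did not overlap, with a log2 fold change of -1.27, and its close relative *HY5*, the main light-response factor of the seedling, had -0.80 (DESeq2 adjusted p = 0.0726). *HYH* had -1.44 without Col-0 at 23°C replicate 1 (edgeR adjusted p = 0.0385).

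Clock genes had a median of -0.10 over 26 genes. *RVE1*, a morning-phased MYB-like factor that links the clock to auxin, was 7.09-fold lower at 1.73, 3.06, 1.24 and 2.35 CPM in the *pwr-2* libraries, against 2.43, 44.0, 5.37 and 39.1 CPM in the Col-0 libraries. The 27°C and 23°C replicate 2 libraries of Col-0 were the highest, and one Col-0 library lay within the *pwr-2* range. *CDF2*, a DOF repressor of *CO*, had pair differences of -1.29, -1.47, -0.57 and -1.57. Both passed in DESeq2, at adjusted p of 0.00144 and 0.0164, as did 1 gene on the higher side, *CCR1*, a glycine-rich RNA-binding protein gene (log2 fold change 0.85). Over all genes DESeq2 called 1.7% lower and 1.92% higher. Without Col-0 at 23°C replicate 1 *RVE1* had -3.35 and *CDF2* -1.24, both past the edgeR threshold. *ELF4*, an evening complex gene, had a log2 fold change of 0.65 (DESeq2 adjusted p = 0.130).

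Stress and secondary metabolism lists had positive medians that were not constant over the pairs. The glucosinolate list had a median of 0.97 over 37 genes, 33 of them above 0, with pair medians of -0.23, 1.58, 0.24 and 1.98. Of all 19131 genes tested, 9483 were above 0. In all 4 pairs, 6 of the list were higher and 0 lower (16.2%, beside 24.7% over all genes). Only *ESM1* and *CYP81F4*, a P450 gene of indole glucosinolate modification, passed in DESeq2, and *CYP81F4*, which AT4G37409 overlaps on the opposite strand, had pair differences of 0.49, 1.65, 1.76 and 1.18. The anthocyanin and flavonoid list had a median of 1.21 over 21 genes and pair medians of -1.12, 1.16, 1.67 and 2.50. In it, *FLS1*, the flavonol synthase gene, had pair differences of 0.86, 0.99, 1.67 and 1.98, and *UGT78D1*, a flavonol glycosyltransferase gene, had 0.45, 1.81, 1.11 and 2.56. *MYBL2*, a repressor of anthocyanin genes, was lower with -0.46, -1.92, -1.31 and -2.23 and groups that did not overlap. All 3 passed in DESeq2, at adjusted p of 2.00e-04, 0.00750 and 0.00322. Without Col-0 at 23°C replicate 1 the medians were 1.09 for the glucosinolate list and 1.81 for the flavonoid list, *CYP81F4* had 1.53, *FLS1* 1.65, *UGT78D1* 1.91 and *MYBL2* -1.75, and these 4 genes passed in edgeR.

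The salicylic acid and defence list had a median of 0.42 over 49 genes, with pair medians of -0.81, 0.24, 0.59 and 1.21, and DESeq2 called 3 higher, *LOX2*, *VSP2* and *CYP71A12*. Over all genes DESeq2 called 1.92% higher and 1.7% lower. *LOX2*, a lipoxygenase of jasmonate synthesis, had 608, 319, 1235 and 619 CPM in the *pwr-2* libraries, against 341, 14.0, 366 and 10.4 CPM in the Col-0 libraries. Its Col-0 values spread widely, from replicate 2 libraries with little transcript to replicate 1 libraries near the lower *pwr-2* values. With single libraries left out of the additive fit, the estimate for *LOX2* ran from 2.30 (without Col-0 at 27°C replicate 2) to 4.13 (without *pwr-2* at 23°C replicate 1), that for *VSP2*, a vegetative storage protein gene induced by jasmonate, from 1.41 to 2.91 with the same 2 libraries at the ends, and that for *CYP71A12*, a P450 gene of indole-derived defence compounds, from 0.07 (without Col-0 at 27°C replicate 2) to 6.80 (without *pwr-2* at 23°C replicate 1). The abscisic acid and cold list had 0.59 over 37 genes with pair medians of -0.60, 0.64, 1.16 and 0.91, and the heat shock list 0.56 over 25 genes with -0.89, 1.86, 0.40 and 0.85. *LTI78*, a dehydration- and cold-induced gene, had -0.16, 3.01, 1.77 and 2.83, and *Hsp70b*, a heat-induced chaperone gene, -0.38, 4.37, 1.83 and 4.04. *Hsp70b* had between 2.06 and 3.42 with those same libraries left out. In each of these 5 lists the pair at 23°C replicate 1 had the lowest median, and it was the one below 0. The median without Col-0 at 23°C replicate 1 was 0.83 for the defence list, 0.99 for the abscisic acid list and 0.64 for the heat shock list.

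**Figure D5:**
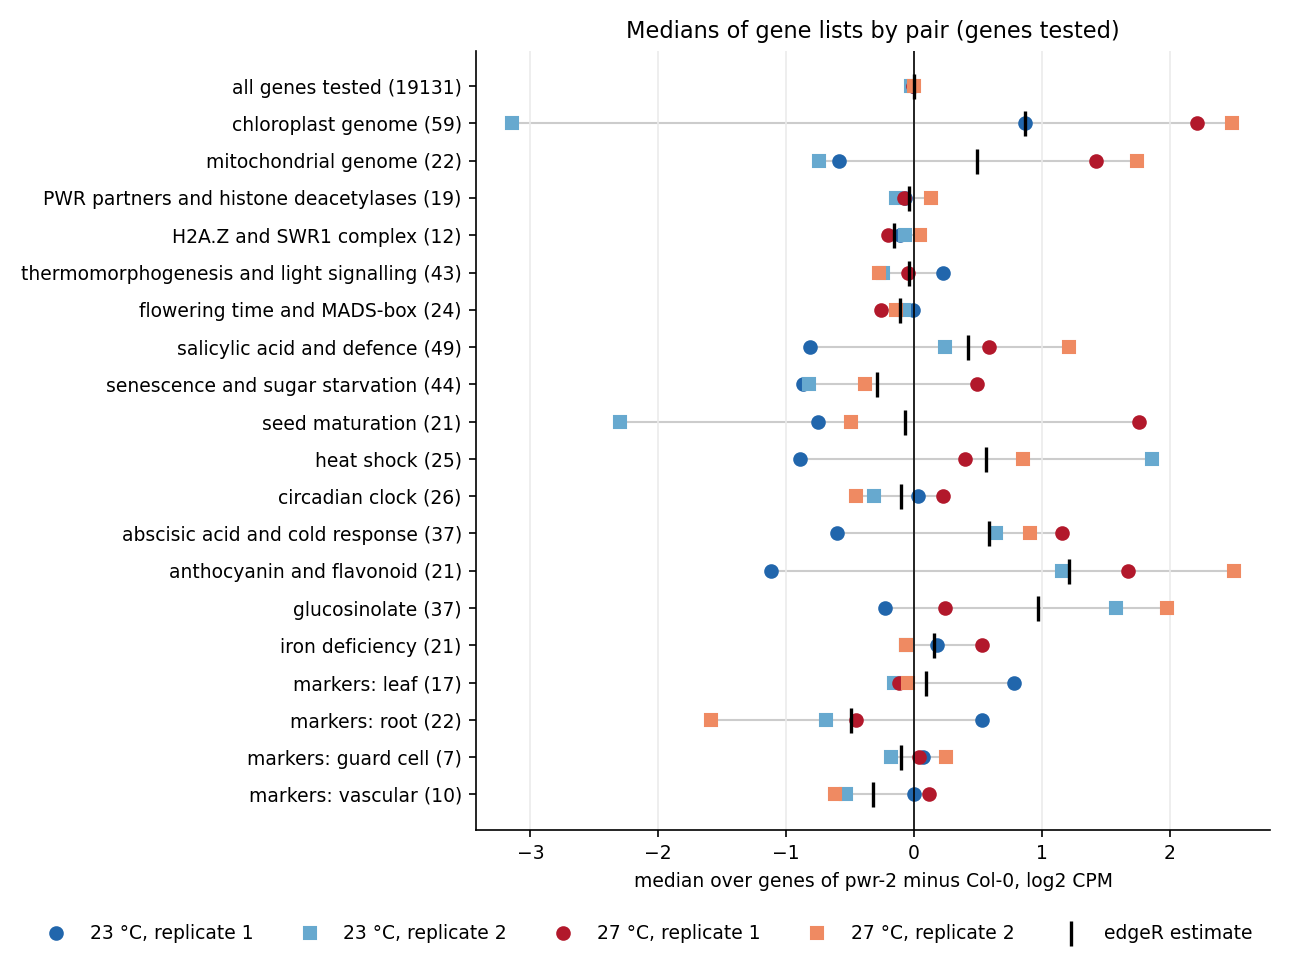
Median difference in log2 CPM between *pwr-2* and Col-0 over the tested genes of each list, in each of the 4 pairs, with a tick at the median edgeR log2 fold change. The pair at 23°C replicate 1 lies below 0 in the defence, heat, abscisic acid, flavonoid and glucosinolate lists, where the other 3 pairs lie above it.

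Transcripts of the organelle genomes did not differ constantly. The 59 tested chloroplast genes had a median log2 fold change of 0.87, with pair medians of 0.87, -3.14, 2.21 and 2.49, and the 22 tested mitochondrial genes had 0.49. DESeq2 called 0 of them, edgeR called 0, and 1 chloroplast gene, ATCG00700, had an unadjusted p under 0.05. It was higher in all 4 pairs at 0.78, 0.50, 1.17 and 1.73. Normalizing and testing nuclear genes alone left the edgeR count at 0.

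Markers of seedling tissues were compared in the same way. The 17 leaf markers, genes of light-harvesting proteins and Rubisco, had a median of 0.09, and their summed level was 70890 to 114500 CPM in *pwr-2* and 65020 to 110600 CPM in Col-0. Of 25 root markers, 22 were tested, with a median of -0.49, and 20 were below 0. Their summed level was 1967 to 2935 CPM in *pwr-2* and 2476 to 3807 CPM in Col-0, and DESeq2 called 0. At an unadjusted edgeR p under 0.05, 5 were lower and 0 higher (22.7%), beside 8.11% lower and 7.08% higher over all genes. No leaf or root marker was at 0 in all 8 libraries. The pair medians of the root markers were 0.53, -0.69, -0.45 and -1.59. *CASP1* to *CASP5*, which build the Casparian strip of the root endodermis, were lower in 3 of 4 pairs, most for *CASP5* at 0.63, -2.37, -2.25 and -3.96. *SHR* and *SCR*, which pattern the root endodermis, and *KT1*, the gene of the root potassium channel AKT1, had groups that did not overlap, with log2 fold changes of -0.38, -0.66 and -0.44. Such groups were found for these 3 of the 22 root markers alone (13.6%), beside 6.58% over all genes. In all 4 pairs, 6 root markers were lower and 0 higher (27.3%, beside 24.7% over all genes). Guard cell, vascular, trichome and meristem markers had medians of -0.10, -0.32, 0.55 and 0.05 over 7, 10, 2 and 3 tested genes. The part of tissue proportions in the results was not tested.

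The averaged difference was set beside the 2 ways in which it could vary. For the genotype by temperature term, edgeR called 0 of 19131 genes (0.0%), with 645 at an unadjusted p under 0.05 (3.37%) and a lowest adjusted p of 0.9998, and DESeq2 called 70 of 20230 (0.346%). For the genotype by replicate term, edgeR called 0 (0.0%), with 2089 at an unadjusted p under 0.05 (10.9%) and a lowest adjusted p of 0.398, and DESeq2 called 275 of 18375 (1.5%). The median absolute size was 0.27 on the log2 scale for the average, 0.32 for the temperature term and 0.43 for the replicate term. The average is a mean over 4 pairs, whereas each term is a difference between 2 means of 2 pairs. A term therefore carries more noise, and its size cannot be set against that of the average. By the medians and counts of the 2 terms over all genes, the replicate term was larger than the temperature term. The pair at 23°C replicate 1 entered both terms, and neither was fitted without it. For the genotype itself, edgeR called 0 genes with the 23°C pairs alone and 202 with the 27°C pairs alone. Among the genes of lowest p for the replicate term were *TPS11* and *FMO GS-OX1*, a glucosinolate oxygenase gene with pair differences of -1.10, 2.68, -0.71 and 3.02. *IRT1* was the third. Against these stand the pair differences of -2.72 to -1.84 for *PWR*, -2.78 to -1.98 for *FER1*, 3.70 to 4.81 for AT5G35935 and 0.84 to 1.01 for *CESA6*.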

How the data were processed

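The authors removed ribosomal RNA reads with SortMeRNA, aligned 90-base read pairs to TAIR10 with TopHat2 2.1.0 and Bowtie2 2.1.0, and counted them per gene with featureCounts 1.4.5, requiring both reads to align, per the paper's methods and the submitters' processing notes, which also list FastQC and DESeq2 1.14.1. Strand setting and annotation release are not given in the sources used here. The authors deposited raw counts in 1 table per temperature, joined here by gene identifier, and these counts are the only values used. The deposited normalized table and gene lengths were not used.

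Genes were tested with edgeR 4.0.16 in R 4.3.3 (TMM, filterByExpr by genotype, quasi-likelihood test, 3 residual degrees of freedom) with the 4 pairs as a block, Benjamini-Hochberg adjusted over 19131 genes, at a threshold of 0.05. The standard error of a log2 fold change was taken as its absolute value over the root of F. Log2 CPM used a prior count of 2. Alternatives were DESeq2 1.42.0, limma voom 3.58.1, other scalings and filters, other blocks, and leaving out libraries or pairs. The main edgeR test of the genotype, with the pairs as a block, was tried on simulated counts, and the other tests were not. Symbols and positions came from the RefSeq annotation of TAIR10.1, which matched 32835 of 33602 identifiers. Copies were searched with BLAST+ 2.17.0, and figures drawn with matplotlib 3.10.9.

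The study accounts for a batch effect between replicates, which is where the pairing comes from. As a check, the replicate difference had Pearson's r of 0.665 between temperatures in Col-0, 0.579 in *pwr-2* and 0.275 to 0.380 between genotypes, across genes.

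Named genes were *PWR*, then the 12 higher and 12 lower genes of lowest unadjusted p with 1 direction in 4 pairs, groups that did not overlap and a mean of at least 1 CPM, since none passed the threshold. In each list up to 3 members of lowest p were named, with the genes the study names and the 3 genes of lowest p for each interaction term. Further genes were added after their values were seen and are given as such, as are list members that DESeq2 called. Members and lists were chosen with earlier results of these data known, and lists carry no test.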

Additional observations from a re-analysis of the deposited data

Results flagged for a closer look

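*UPI* had pair differences of -2.36, -2.34, -2.40 and -3.16 in log2 CPM between *pwr-2* and Col-0. The 27°C pair of replicate 2, at -3.16, lay farther from the other 3 than their own spread allows by Dixon's criterion for 4 values, a criterion that chance meets in about 1 of 20 groups. Other named genes met it too, such as *SEN1* at -3.33, -3.49, -0.44 and -3.45 and *ELF4* at 1.17, 0.48, 0.46 and 0.49. An outlying pair is thus not particular to *UPI*.

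In the 3 genes of lowest p for the genotype by temperature term, the *pwr-2* effect had one sign in both 23°C pairs and the other in both 27°C pairs. They were picked by the p of that term, which is therefore not a separate test of them. Other genes had the same pattern of signs, such as *FRK1* at -2.83, -1.69, 1.22 and 1.33. *PBS3*, a gene that acts in salicylic acid synthesis, had pair differences of -1.61, -0.88, 3.16 and 3.15, with a genotype by temperature term of 4.94 on the log2 scale (DESeq2 adjusted p = 0.00271). The chitinase family gene AT2G43620 had -2.73, -2.29, 0.98 and 1.59, with a term of 3.87 (DESeq2 adjusted p = 2.95e-04). The peroxidase gene AT5G39580 had -1.91, -2.23, 0.48 and 0.17, with a term of 2.41 (DESeq2 adjusted p = 0.0115). In edgeR the adjusted p of the same term was 0.9998 for all 3 genes.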

How the results depend on the processing

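The edgeR count of 0 remained 0 with other size factors, filters, nuclear genes alone, limma voom, a robust prior, a threshold of 0.01, and the 23°C pairs alone. It became 3 with the replicate block and temperature as additive terms, 698 in DESeq2 with the pairs as block, 642 with its fold change prior, and 202 with the 27°C pairs alone. Leaving out pairs in turn gave 0 to 179, and single libraries 0 to 2153, both highest without Col-0 at 23°C replicate 1. Chosen after seeing the data, DESeq2 without that pair gave 2723 and on nuclear genes 737. With no replicate block edgeR called 0. DESeq2 called 70 for the temperature term and 275 for the replicate term, against 0 in edgeR. Genes with 1 direction in 4 pairs were 4273 to 4718. Signs turned only in genes with small or inconstant averages. *PIF4* turned to -0.03 without the first 23°C pair, -0.02 without its Col-0 library, -0.17 at 27°C alone and -0.02 in DESeq2 without that pair. *YUC8* had -0.00 in voom, -0.12 and -0.03 without a pair (0.21 at most), -0.05, -0.02, -0.10 and -0.00 without a library, -0.03 at 27°C alone and -0.12 in DESeq2 without the first pair. *HDA9* had 0.04 and *FER2* 0.12 at 27°C alone. *PBS3* had -0.26 (up to 2.78) without *pwr-2* at 27°C replicate 2 and -1.61 at 23°C alone. AT2G43620 had 0.20 and 0.13 without a 23°C pair (down to -1.42 without another), 0.17 and 0.09 without a *pwr-2* library, 1.29 at 27°C alone and 0.23 in DESeq2, and AT5G39580 had 0.31 at 27°C alone. *IRT1* had -0.42, -0.23 and -1.51 (up to 3.24). ATMG01320 had -0.02 (up to 2.17 without another library) and -0.08, ATMG01000 -0.26 and ATMG00410 -0.35, mostly at 23°C alone. The causes were not tested. The common biological coefficient of variation was 0.342 over 4 pairs, and why edgeR and DESeq2 differ in their counts was not tested.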

Other observations

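Genes of abscisic acid and cold response that DESeq2 called were *KIN1* (-0.93, 3.59, 2.90 and 4.02 in log2 CPM between *pwr-2* and Col-0 over the 4 pairs), *COR15B* (1.69, 3.08, -0.63 and 2.63) and *LTI78* on the higher side, and on the lower side *CYP707A2*, which encodes an enzyme that breaks down abscisic acid. *CYP707A2* had 27.0, 17.8, 17.39 and 15.4 CPM in the *pwr-2* libraries, against 30.1, 43.8, 38.1 and 40.4 CPM in the Col-0 libraries. Its groups did not overlap, and its log2 fold change was -1.0 (standard error 0.240, DESeq2 adjusted p = 0.0364). Each of the 3 higher genes was below 0 in 1 of its 4 pairs. With single libraries left out of the additive fit, *KIN1* ran from 1.92 (without Col-0 at 27°C replicate 2) to 3.34 (without Col-0 at 23°C replicate 1), and *COR15B* reached 2.39 without Col-0 at 27°C replicate 1. *GolS1*, a gene of galactinol synthase, an enzyme of the raffinose pathway, was lower in all 4 pairs at -1.19, -1.24, -0.29 and -1.30 (DESeq2 adjusted p = 0.0297). *SAG29*, a sugar transporter gene of senescing and stressed tissue, was the 1 starvation list gene that DESeq2 called higher, with -1.15, 2.70, 4.43 and 4.50, and ran from 1.69 to 3.73 with the libraries named for *KIN1* left out. The uncharacterized gene AT2G30766, chosen after its values were seen, was higher in all 4 pairs at 3.51, 1.95, 2.75 and 4.43 (4.54 in the additive fit without *pwr-2* at 27°C replicate 1), and it overlaps AT2G30760 and *CYP71A13* on the opposite strand, so its counts cannot be told apart from theirs.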
